A study of Homo sapiens with 18 samples.

Results

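The 9 genes described here encode complement components and complement regulators: CFI, CFB, C3, C1R, C1S, CD46, CD55, CD59 and SERPING1. They were taken by symbol from the count files of ARPE-19, a human cell line of retinal pigment epithelium (RPE) that arose spontaneously in culture, and all 9 were among the 23411 symbols counted. The 18 mRNA libraries cover control and NRF2-edited cells given water only (untreated), 1 mM NACET, which is the ethyl ester of N-acetylcysteine, or 0.2 mM H2O2, with 3 replicates of each of these 6 groups. Control cells had been transduced with a Cas9 lentiviral vector that lacked a gRNA. NRF2-edited cells carried the same vector with a gRNA that cuts NFE2L2, which encodes NRF2, in its last exon, and both edited alleles had a premature stop codon. The edited line is a single clone taken after puromycin selection, so an effect of the edit and a feature of that clone cannot be told apart in any comparison between the lines. The series design text states 8 h of treatment after 40 h of culture in 10% serum. The protocol fields of the libraries read 2 h after 22 h in 1% serum, and the former times are taken here.

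Complement is a cascade of plasma and cell-surface proteins that tags and lyses targets. C1r and C1s are the proteases of the first classical-pathway component, C3 is the protein on which all pathways converge, and factor B is the protease that amplifies C3 cleavage in the alternative pathway. C1 inhibitor (SERPING1) blocks C1r and C1s, factor I (CFI) degrades C3b with the help of cofactors such as CD46, CD55 takes apart the C3-cleaving enzymes, and CD59 stops the membrane attack complex from assembling. Retinal pigment epithelium makes several of these proteins, and genetic variation in complement regulation is linked to age-related macular degeneration.

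Libraries held between 16673306 and 25951154 reads on genes. Levels are given as CPM, counts scaled to the library's total, after TMM normalization over all 18 libraries, a correction for library composition. NQO1, an NRF2 target, checks the labels. It averaged 230 CPM in control cells without treatment, 806 CPM after H2O2 and 1131 CPM after NACET, against 14.1, 16.0 and 20.5 CPM in NRF2-edited cells. NFE2L2 itself, whose counts cover the whole gene and cannot show the edit, ranged from 108 to 139 CPM over the 6 group means. Of 16 RPE markers 11 averaged at least 1 CPM, among them MITF and OTX2, but RPE65, RLBP1, TYR, DCT and TTR stayed under 1 CPM in every group. BEST1, also among the 11, had group means above 1 CPM only with H2O2 (1.49 CPM in control and 3.27 CPM in edited cells). Leukocyte markers were limited to CD68 and CSF1R (2 of 6 markers at or above 1 CPM), and PTPRC, which marks leukocytes, averaged at most 0.02 CPM in any group. None of 4 endothelial and 1 of 4 hepatocyte markers, SERPINA1, averaged 1 CPM or more, and the hepatocyte gene FGB had no count.

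Promoters of 6 of the 9 genes were in the RefSeq table used here (11 promoters, build GRCh38.p14), and the 250 bases before the start site were searched on both strands for 4 motifs. These were the core of the antioxidant response element, the site of NRF2 and its MAF partners (TGACNNNGC, in 10.9% of all 35116 promoters of that table), a STAT element (TTCNNNGAA, 6.57%), an interferon-stimulated element (TTTC, any 2 bases, TTTC; 3.02%) and an NF-kB element (GGG, any 2 bases, TTTCC; 1.73%). No promoter of CFI, CFB, C1R, CD46, CD55 or CD59 held the antioxidant response element core or the NF-kB element in this window. A STAT element lay in the CFB promoter, in 1 of 2 C1R promoters and in 2 overlapping promoters of CD59, and the CFB promoter also held the interferon-stimulated element. The promoters of CFB and C1R are shown because they hold these letters and that of CD55 because its level rose with H2O2, each read 5′ to 3′ on the strand of its gene, with motif matches in capitals. The CFB window is chr6:31945845-31946094 (plus strand), the C1R window chr12:7091894-7092143 (minus strand) and the CD55 window chr1:207321428-207321677 (plus strand).
CFB: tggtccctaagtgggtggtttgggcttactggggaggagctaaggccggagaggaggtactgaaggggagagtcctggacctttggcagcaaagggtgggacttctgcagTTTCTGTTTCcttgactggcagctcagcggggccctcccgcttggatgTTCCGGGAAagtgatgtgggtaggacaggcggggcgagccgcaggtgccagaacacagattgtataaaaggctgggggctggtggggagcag
C1R: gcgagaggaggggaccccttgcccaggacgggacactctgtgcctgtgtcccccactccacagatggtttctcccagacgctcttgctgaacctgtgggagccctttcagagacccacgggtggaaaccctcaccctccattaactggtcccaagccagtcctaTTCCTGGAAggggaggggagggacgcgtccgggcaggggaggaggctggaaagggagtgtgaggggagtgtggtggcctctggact
CD55: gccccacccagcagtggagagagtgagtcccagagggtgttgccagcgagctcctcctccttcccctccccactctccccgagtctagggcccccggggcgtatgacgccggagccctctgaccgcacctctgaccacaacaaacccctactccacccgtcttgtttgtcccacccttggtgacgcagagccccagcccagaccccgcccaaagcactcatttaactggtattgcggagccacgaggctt
In CFB the interferon-stimulated element began 140 bases and the STAT element 92 bases before the start site, and in C1R the STAT element began 86 bases before it. The CD55 window, from the gene that passed the test of H2O2 treatment, held none of the 4 motifs. These matches describe letters and were not tested as binding sites.

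Levels per length could be compared among 8 of the 9 genes. In untreated control cells CD59 stood at 45.1 ± 1.75 CPM per kb of its canonical transcript (SD, n = 3), CD46 at 43.5 ± 2.30, CD55 at 23.6 ± 2.49 and C1S at 21.9 ± 7.34. SERPING1 at 4.31 ± 1.49, C3 at 2.83 ± 1.57, CFI at 1.79 ± 1.03 and CFB at 1.25 ± 0.129 CPM per kb were lower. CD59 did not differ from CD46, CD55 from C1S, SERPING1 from C3, C3 from CFI, or CFI from CFB by more than the larger SD of each pair. C1R had no canonical transcript in the annotation, so it has no value per kb and no place in this order. All 9 genes passed the filter on low counts in every comparison.

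**Figure D1:**
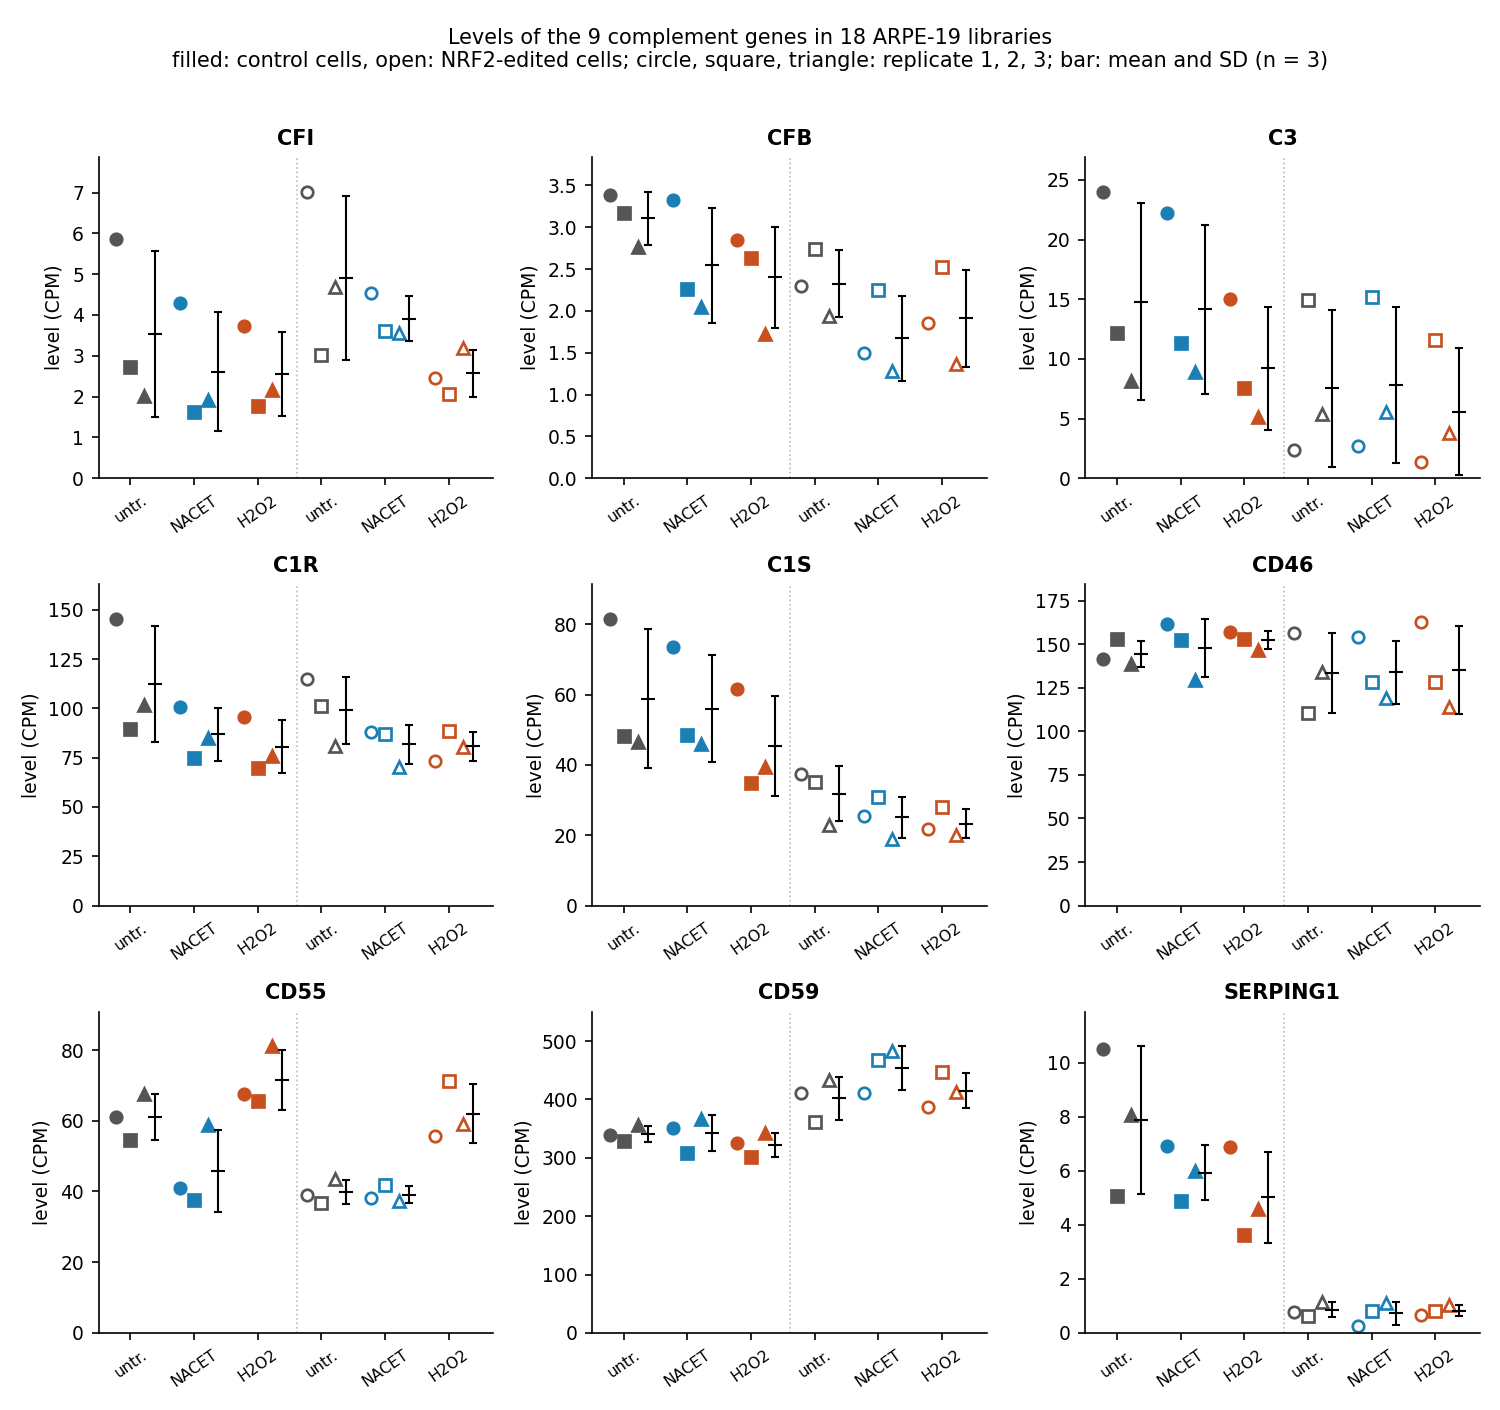
Level in CPM (vertical axis, starting at 0) of each of the 9 genes in every library of the 6 groups (horizontal axis), with the mean and SD of each group. SERPING1 lies between 3.60 and 10.5 CPM in the control cells and between 0.250 and 1.16 CPM in the NRF2-edited cells, while C3 is spread over a wide range within every group.

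The first comparison asked how NRF2-edited cells differ from control cells under the same treatment. SERPING1 was lower in the edited line under all 3 conditions, C1S was lower under NACET and H2O2, and CD55 was lower without treatment. In each condition 2 of the 9 genes passed the test, all of them downward, against 4.07% of 13710 genes in untreated cells (3.3% downward), 6.23% with H2O2 (4.39% downward) and 5.42% with NACET (4.21% downward). Each pair of groups was compared with edgeR by quasi-likelihood, and a gene passed at an adjusted p (Benjamini-Hochberg, over all genes) under 0.05. The median log2 fold change of the 9 genes, edited over control, stood at -0.42 in untreated cells, -0.21 after H2O2 and -0.24 after NACET, where the median of all genes tested lay between -0.002 and 0.013.

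SERPING1 (chr11:57364860-57386644, hg19, plus strand), the inhibitor of C1r and C1s, showed the largest difference of the 9 genes. Replicates 1, 2 and 3 of the control cells had 10.5, 5.07 and 8.05 CPM untreated, 6.91, 4.90 and 5.98 CPM with NACET and 6.86, 3.60 and 4.57 CPM with H2O2. In the edited cells they had 0.781, 0.626 and 1.16 CPM untreated, 0.250, 0.822 and 1.09 CPM with NACET and 0.651, 0.807 and 1.02 CPM with H2O2. The highest edited library thus lay below the lowest control library, and SERPING1 was the only one of the 9 genes whose ranges in the 2 lines did not overlap. The share of all genes that separate the lines, over all libraries or within a condition, was not counted. In bulk libraries, fewer cells with a transcript and less of it per cell cannot be told apart. The level was 9.28-fold lower in untreated edited cells (log2 fold change -3.21, SE 0.35, adjusted p = 0.00134), 8.35-fold lower with NACET (-3.06, SE 0.40, adjusted p = 0.00399) and 5.98-fold lower with H2O2 (-2.58, SE 0.32, adjusted p = 0.00188). The edited libraries held 6 to 25 reads of SERPING1 each. All 3 calls held in each of 13 other fits, with log2 fold changes from -3.52 to -2.30.

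C1S and C1R are neighbours on chromosome 12 (chr12:7096351-7178336, plus strand, and chr12:7187513-7245203, minus strand, hg19) and encode the paired proteases that C1 inhibitor blocks. C1S had 81.5, 48.3 and 46.6 CPM in the untreated control replicates 1, 2 and 3, 73.4, 48.5 and 45.9 CPM with NACET and 61.6, 34.9 and 39.5 CPM with H2O2. In the edited line it had 37.5, 35.1 and 22.9 CPM untreated, 25.6, 30.7 and 19.1 CPM with NACET and 21.8, 28.1 and 20.1 CPM with H2O2. Under each condition the highest edited replicate was below the lowest control replicate, and replicate 1 stood highest in the control line throughout. How many of all genes separate in this way was not counted. C1S was 2.24-fold lower in edited cells with NACET (log2 fold change -1.16, SE 0.24, adjusted p = 0.0287) and 1.95-fold lower with H2O2 (-0.97, SE 0.23, adjusted p = 0.0407). In untreated cells the value was -0.89 (SE 0.26) and missed the threshold (adjusted p = 0.139). Each of the 2 calls was lost in 4 of the 6 fits that left out a library: with H2O2 without control replicate 1 or 3 or edited replicate 2 or 3, and with NACET without control replicate 1 or 2 or edited replicate 2 or 3. Over all alternatives the log2 fold change stayed at or below -0.69 with H2O2 and -0.91 with NACET.

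C1R had 145, 89.4 and 102 CPM in untreated control cells, 101, 74.6 and 84.9 CPM with NACET and 95.6, 69.9 and 76.0 CPM with H2O2. In edited cells it had 115, 101 and 81.1 CPM untreated, 87.9, 87.1 and 70.2 CPM with NACET and 73.3, 88.3 and 80.6 CPM with H2O2. The 2 lines overlapped under every condition, and the log2 fold changes, edited over control, were -0.18 (SE 0.21), -0.09 (SE 0.15) and -0.0020 (SE 0.15) for untreated, NACET and H2O2. None passed the test (adjusted p from 0.781 to 0.996). The span of C1R overlaps that of its paralog C1RL on the same strand in the annotation used here for positions. Reads in a stretch shared by 2 genes are not assigned by the counting used. Whether the 2 genes share exons in the annotation behind the counts was not checked. C1RL lay between 21.8 and 52.8 CPM over the 18 libraries.

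CD55 (chr1:207494864-207560149, hg19, plus strand), which speeds the decay of the C3 and C5 convertases on the cell's own surface, had 61.0, 54.6 and 67.5 CPM in untreated control cells and 39.0, 36.9 and 43.5 CPM in untreated edited cells. The groups did not overlap, and CD55 was 1.54-fold lower in the edited line (log2 fold change -0.62, SE 0.12, adjusted p = 0.0246). This call was lost without any 1 of the 3 control libraries, or without edited replicate 2 or 3 (log2 fold change from -0.70 to -0.54 over all alternatives). With NACET the control cells had 40.8, 37.6 and 58.9 CPM and the edited cells 38.2, 41.8 and 37.2 CPM, and with H2O2 they had 67.6, 65.5 and 81.1 CPM against 55.6, 71.4 and 59.2 CPM. Under both treatments the lines overlapped and the difference did not pass the test (log2 fold change -0.24, SE 0.17, adjusted p = 0.533 with NACET; -0.21, SE 0.14, adjusted p = 0.385 with H2O2).

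CD59 (chr11:33724556-33758025, hg19, minus strand), a lipid-anchored inhibitor of the membrane attack complex, had group means from 323 to 454 CPM. Control cells had 339, 329 and 355 CPM untreated, 352, 308 and 367 CPM with NACET and 326, 301 and 342 CPM with H2O2, and edited cells had 411, 362 and 433, then 412, 468 and 482, then 386, 446 and 412 CPM. Within each condition every edited library was above every control library, and the share of all genes that separate in this way was not counted. The log2 fold changes were 0.24 (SE 0.11), 0.40 (SE 0.11) and 0.36 (SE 0.12) for untreated, NACET and H2O2, and none passed the test (adjusted p = 0.421, 0.0972 and 0.112). In a single fit of all 18 libraries, which shares 1 estimate of the spread, the NACET and H2O2 differences passed (adjusted p = 0.0114 and 0.0213).

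CD46, a cofactor for factor I on the cell surface (chr1:207925382-207968858, hg19, plus strand), had 142, 153 and 139 CPM in untreated control cells and 156, 110 and 134 CPM in untreated edited cells. With NACET it had 162, 153 and 129 CPM in control and 154, 129 and 119 CPM in edited cells, and with H2O2 157, 153 and 147 against 163, 128 and 114 CPM. Its group means lay between 134 and 152 CPM in all 6 groups, and the ranges of neighbouring groups in their order overlapped throughout. Edited over control, its log2 fold changes were -0.11 (SE 0.14), -0.15 (SE 0.14) and -0.18 (SE 0.14) for untreated, NACET and H2O2 (adjusted p = 0.809, 0.644 and 0.476).

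C3 (chr19:6677715-6730573, hg19, minus strand), the central component, varied more between replicates than between groups. In control cells replicates 1, 2 and 3 had 24.0, 12.2 and 8.19 CPM untreated, 22.2, 11.3 and 8.95 CPM with NACET and 15.0, 7.55 and 5.11 CPM with H2O2. In edited cells they had 2.34, 14.9 and 5.37 CPM untreated, 2.71, 15.2 and 5.52 CPM with NACET and 1.40, 11.5 and 3.83 CPM with H2O2. Replicate 1 was thus highest in the control line and lowest in the edited line under every treatment, and replicate 2 was highest in the edited line. The SD of log2 CPM within groups was 1.09, larger than that of 99.9% of the 2921 genes with a mean level from 0.5 to 2 times that of C3, whose median was 0.213. The log2 fold changes between the lines were -0.97 (SE 0.60), -0.89 (SE 0.59) and -0.73 (SE 0.63) for untreated, NACET and H2O2, and none passed the test (adjusted p = 0.558, 0.486 and 0.505).

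CFB, the alternative-pathway protease (chr6:31913427-31919863, hg19, plus strand, overlapping the end of C2), and CFI, the protease that inactivates C3b (chr4:110652164-110723306, hg19, minus strand), were low in every library. CFB had 3.39, 3.17 and 2.76 CPM in untreated control and 2.29, 2.74 and 1.94 CPM in untreated edited cells. With NACET it had 3.33, 2.26 and 2.05 CPM in control and 1.5, 2.25 and 1.28 CPM in edited cells, and with H2O2 2.85, 2.63 and 1.72 against 1.85, 2.52 and 1.36 CPM. Its mean was lower in the edited line under all 3 conditions (2.33 against 3.11 CPM untreated, 1.67 against 2.55 with NACET, 1.91 against 2.40 with H2O2), without passing the test (log2 fold change -0.42, SE 0.22, adjusted p = 0.469 untreated, with -0.62 and -0.34 under NACET and H2O2). CFI had 5.85, 2.73 and 2.02 CPM in untreated control and 7.02, 3.01 and 4.67 CPM in untreated edited cells, then 4.29, 1.61 and 1.92 against 4.54, 3.62 and 3.56 CPM with NACET and 3.72, 1.78 and 2.16 against 2.45, 2.07 and 3.19 CPM with H2O2. Replicate 1 was the highest CFI library in 5 of 6 groups. Its mean was higher in the edited line under all 3 conditions, by log2 0.46 (SE 0.44), 0.58 (SE 0.37) and 0.03 (SE 0.32) for untreated, NACET and H2O2 (adjusted p from 0.463 to 0.97). The ranges of the 2 lines overlapped under each condition for both genes, except for CFB in untreated cells.

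**Figure D2:**
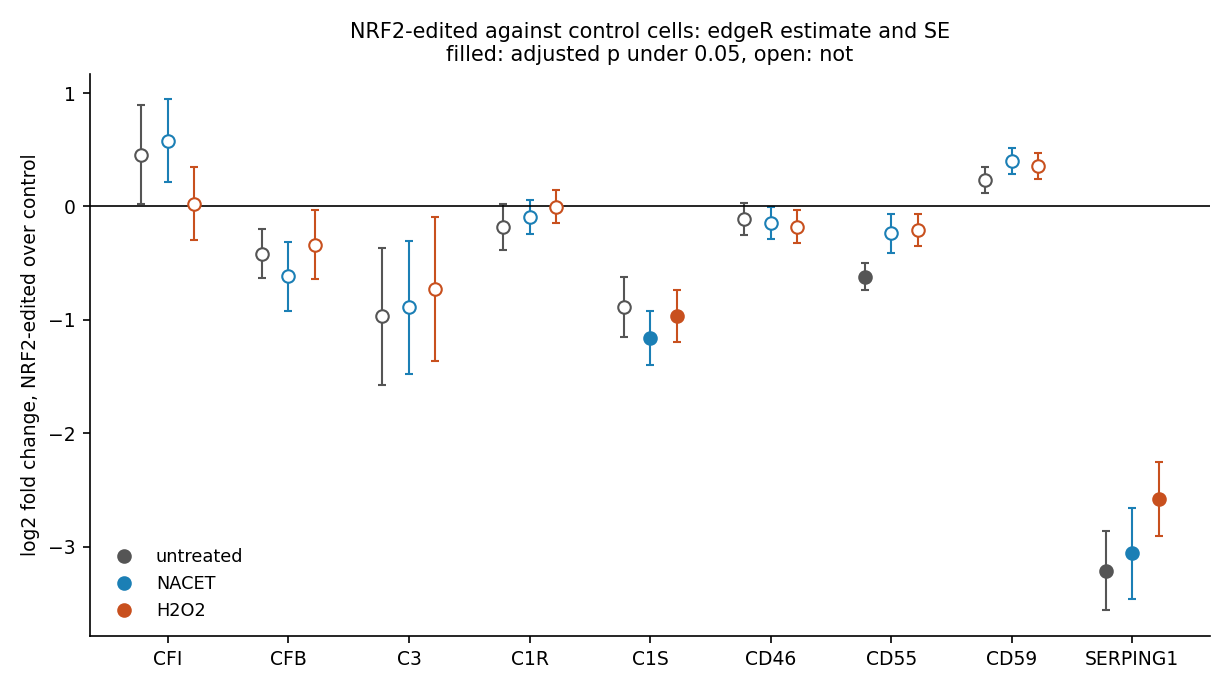
Fitted log2 fold change of each gene in NRF2-edited over control cells (vertical axis) with its standard error, for untreated, NACET-treated and H2O2-treated cells (3 samples a group). Filled points passed an adjusted p under 0.05; SERPING1 lies between -3.21 and -2.58, and only CFI and CD59 have all 3 points above 0.

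The second comparison asked how each line responds to H2O2. CD55 rose in NRF2-edited cells, and no other member passed the test in either line when replicate numbers were ignored. The untreated edited cells had 39.0, 36.9 and 43.5 CPM of CD55, against 55.6, 71.4 and 59.2 CPM with H2O2, so that the lowest treated library was above the highest untreated one. CD55 was 1.56-fold higher with H2O2 (log2 fold change 0.65, SE 0.15, adjusted p = 0.0275). It was the 1 member of 9 that passed, against 11.1% of 13543 genes (4.96% upward), and the call was lost without any 1 of the 3 untreated libraries or without H2O2 replicate 2 or 3. In control cells the change was 0.24 (SE 0.12, adjusted p = 0.197). There 0 of the 9 genes passed, against 13.2% of 13691 genes. DESeq2 also called none of them, and 1 gene, C1R, had an unadjusted p under 0.05.

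Within each line, libraries that share a replicate number tended to depart from their group means in the same direction, and fits that included the number as a block called more of these genes as well as more of all genes. The spread is estimated by edgeR partly from other genes, so the blocked SEs and p-values may understate a gene's own spread between pairs. With the block, H2O2 lowered C3, C1R, C1S and SERPING1 and raised CD55 in control cells, 5 of 9 genes against 48.7% of all genes tested. In edited cells it lowered CFI, C3, C1R and C1S and raised CD55, 5 of 9 against 46.5%. Counted in either direction, these shares are near the share of all genes. By direction, 4 of 9 fell in each line, against 24.6% of all genes in control and 24.7% in edited cells. The 1 gene of 9 that rose stands against 24.1% and 21.9%. The falls were uniform for C3 in control cells, where the difference in log2 CPM between samples with the same number was -0.68, -0.69 and -0.67. The blocked estimate was -0.67 (SE 0.096, adjusted p = 2.97e-05), and the unblocked one -0.69 (SE 0.47, adjusted p = 0.355).

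For C1R the differences in log2 CPM with H2O2 between samples numbered 1, 2 and 3 were -0.60, -0.35 and -0.42 in control and -0.65, -0.19 and -0.010 in edited cells, and for C1S they were -0.40, -0.47 and -0.24 against -0.78, -0.32 and -0.19. With the block C1R fell by 0.44 in control cells on the log2 scale (SE 0.057, adjusted p = 1.03e-05) and by 0.28 in edited cells (SE 0.10, adjusted p = 0.0217), and C1S fell by 0.35 (SE 0.064, adjusted p = 0.000255) and by 0.43 (SE 0.12, adjusted p = 0.00230). C3 fell by 0.47 in edited cells (SE 0.17, adjusted p = 0.0184). SERPING1 fell by 0.63 in control cells (SE 0.13, adjusted p = 0.000567), and CFI fell by 0.88 in edited cells (SE 0.20, adjusted p = 0.000134). CD55, the regulator that went the other way, rose by 0.24 in control cells (SE 0.057, adjusted p = 0.00216) and by 0.64 in edited cells (SE 0.11, adjusted p = 6.62e-07), and was higher with H2O2 in 3 of 3 pairs of each line. CD46, CD59 and CFB passed in neither line with or without the block. The summed level of the 16 RPE markers moved with H2O2 as well, from 1381 to 1408 CPM in untreated and 973 to 1039 CPM in treated control libraries, and from 1325 to 1452 CPM and 958 to 1065 CPM in edited ones. Most of this sum came from KRT8 and KRT18, keratins of simple epithelia in general, whose means in control cells were 617 and 429 CPM untreated and 435 and 295 CPM with H2O2. Mean MITF fell with H2O2 as well, from 166 to 127 CPM in control and from 133 to 79.4 CPM in edited cells. Mean OTX2 fell from 152 to 128 CPM and from 166 to 127 CPM. BEST1, a channel of RPE, went the other way, from 0.460 to 1.49 CPM in control and from 0.241 to 3.27 CPM in edited cells. So did MERTK, from 4.55 to 5.45 CPM and from 3.59 to 4.37 CPM. The part of these markers in the results was not tested.

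The third comparison asked how each line responds to NACET. When replicate numbers were ignored, 0 of the 9 genes passed in control cells, against 3.67% of 13696 genes, and 0 passed in edited cells, against 1.43% of 13542 genes. DESeq2 called none in either line, and the genes with an unadjusted p under 0.05 numbered 1 (CD55) in control and 0 in edited cells. CD55 went from 61.0, 54.6 and 67.5 CPM to 40.8, 37.6 and 58.9 CPM in control cells (log2 fold change -0.42, SE 0.17, adjusted p = 0.221), with overlapping groups, and from 39.0, 36.9 and 43.5 CPM to 38.2, 41.8 and 37.2 CPM in edited cells (-0.03, SE 0.11, adjusted p = 0.905). NACET and H2O2 were compared with the same untreated libraries.

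With the replicate number as a block, NACET lowered CFI, C1R, CD55 and SERPING1 in control cells, 4 of 9 genes against 40.7% of all genes tested, and C1R and C1S in edited cells, 2 of 9 against 34%. Counted in either direction, the share of these genes was again near or below that of all genes. All of these calls were downward. Of all genes tested, 20.6% passed downward in control cells and 18.1% in edited cells, and the 2 of 9 in edited cells is near that share. In control cells CD55 fell by 0.43 on the log2 scale (SE 0.068, adjusted p = 6.66e-09), C1R by 0.36 (SE 0.061, adjusted p = 9.70e-08), SERPING1 by 0.41 (SE 0.13, adjusted p = 0.00480) and CFI by 0.43 (SE 0.18, adjusted p = 0.0409). The 3 pairs of CD55 differed by -0.58, -0.54 and -0.20 in log2 CPM, a wider spread than its SE conveys. In edited cells C1R fell by 0.28 (SE 0.071, adjusted p = 0.00586) and C1S by 0.35 (SE 0.091, adjusted p = 0.00731). C3 changed little with NACET: the difference between samples of the same number ran from -0.11 to 0.13 in control and from 0.02 to 0.20 in edited cells. The summed RPE markers were 1154 to 1307 CPM in NACET-treated control libraries and 1134 to 1337 CPM in edited ones, against the untreated ranges above, and their part was not tested.

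**Figure D3:**
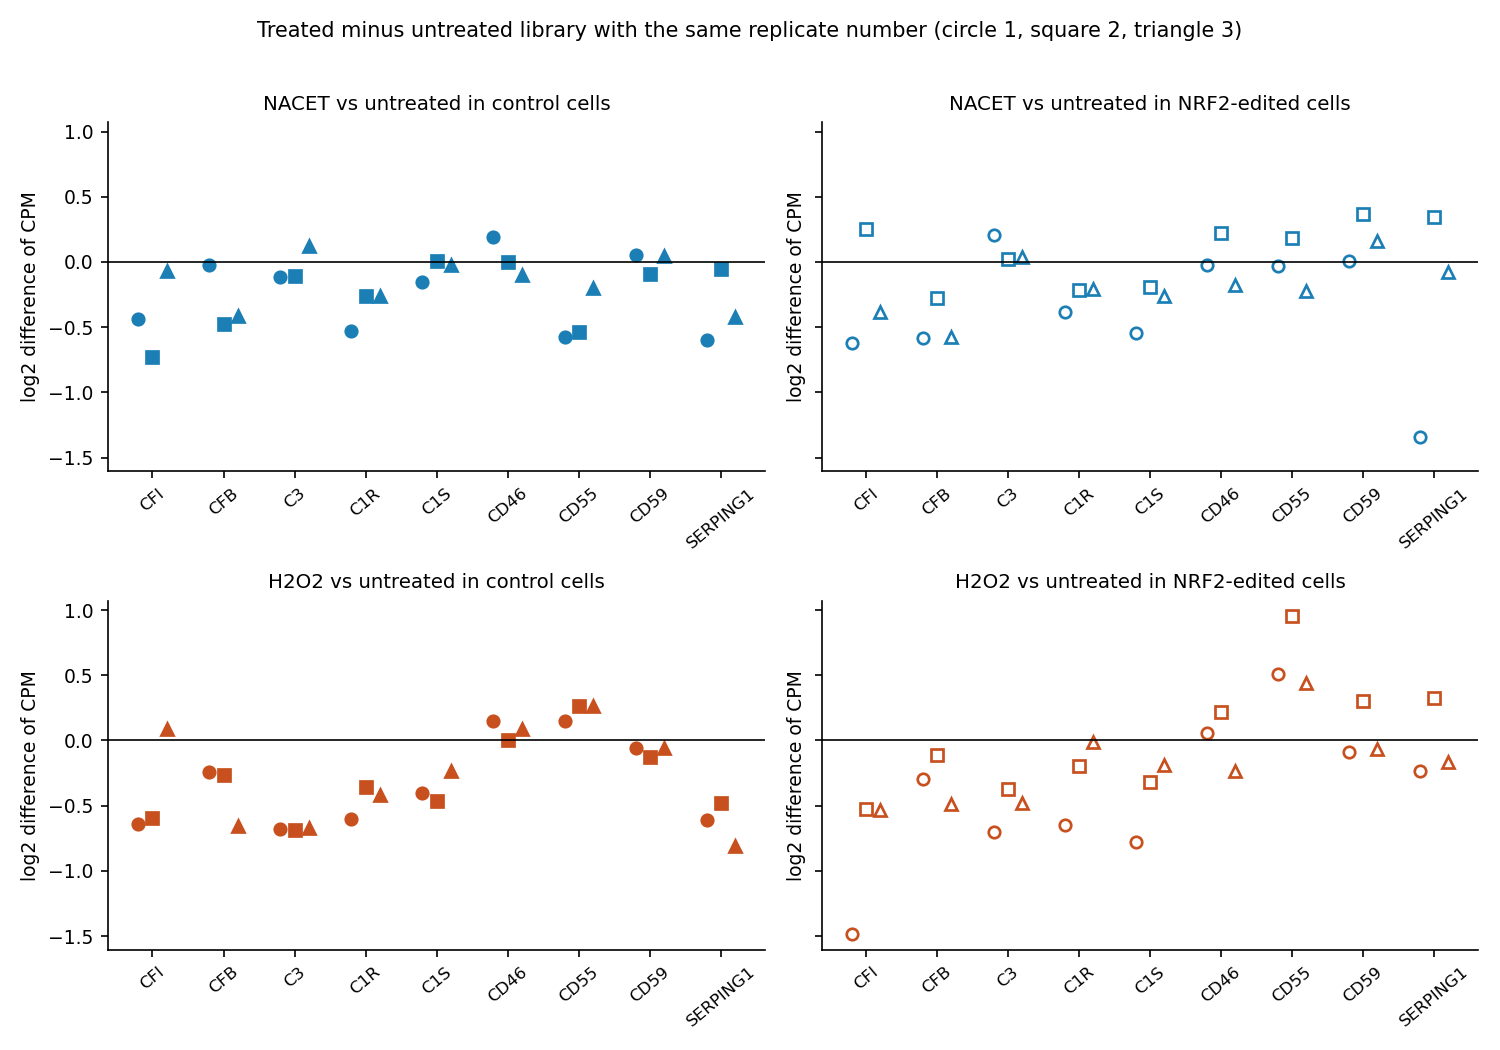
Difference in log2 CPM between the treated and the untreated library with the same replicate number (vertical axis) for each gene and each of 4 treatment comparisons. CD55 is above 0 in all 3 pairs of both H2O2 panels, C3 is below 0 in all of them, and the 3 pairs of C3 in control cells with H2O2 run from -0.69 to -0.67.

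Whether a treatment acted differently in the 2 lines was tested as an interaction over 12 samples. For none of the 9 genes did the difference pass, with NACET (0.0643% of 14002 genes passed) or with H2O2 (0.0214% of 13987 genes), nor with DESeq2 or with the replicate block. With an unadjusted p under 0.05 there were 0 genes for NACET and 1, CD55, for H2O2. The effect of H2O2 on CD55 was larger in edited cells by log2 0.42 (SE 0.18, adjusted p = 0.848; 0.42, SE 0.13, adjusted p = 0.0602 with the block), and the effect of NACET differed by 0.39 (SE 0.22, adjusted p = 1.00; 0.40, SE 0.12, adjusted p = 0.201 with the block). That CD55 passed with H2O2 in edited and not in control cells therefore does not show that the lines differed in this response.

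Of 50 further complement genes, chosen by pathway, all were listed, 13 had no count in any library and 34 never reached 10 counts. Among the silent genes were C1QA, C1QB and C1QC, the recognition subunits with which C1r and C1s assemble, and MBL2 and CR1. C6, C7, C8A, C8B and C9 of the membrane attack complex had at most 2 counts in any library, while C8G of the same complex lay between 0.0836 and 0.605 CPM. C4A and C4B were also listed at 0, but they are near-identical copies and reads mapping to several places were not counted, so their level is uncertain. From 11 to 14 of the 50 genes were tested per comparison, and 10 averaged at least 1 CPM: CLU, C1QBP, C1RL, COLEC12, VTN, C5, MASP2, CFD, C5AR1 and ITGAX.

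Between the lines 1 of 12 tested genes were lower in untreated edited cells, 2 of 13 with H2O2 and 2 of 12 with NACET, against 3.3%, 4.39% and 4.21% of all genes tested, and none was called higher. C4BPB, the beta chain of C4b-binding protein, passed downward in all 3 conditions at low depth: 35, 42 and 47 reads in untreated control against 6, 7 and 16 in untreated edited libraries (log2 fold change -2.14, adjusted p = 0.0176), and 0 to 5 reads in the edited libraries under treatment (adjusted p = 0.00502 with H2O2 and 0.00995 with NACET). ITGAX, a subunit of complement receptor 4, was lower in edited cells with H2O2 (group means of 1.84 CPM in control and 0.586 CPM in edited cells, adjusted p = 0.0154) and with NACET (log2 fold change -2.33, SE 0.41, adjusted p = 0.0153). CLU, a fluid-phase inhibitor of the terminal complex, was not called and ranged from 247 to 357 CPM over group means.

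With H2O2, 2 of 12 tested genes rose and 1 fell in edited cells, and 1 of 12 fell in control cells, where 4.96% of all genes rose and 6.11% fell in edited cells and 6.16% fell in control cells. C5AR1, a receptor for C5a, went from 0.781, 1.21 and 0.741 CPM to 2.00, 2.72 and 2.04 CPM in edited cells (log2 fold change 1.29, SE 0.30, adjusted p = 0.0276). C2, the classical-pathway relative of factor B, rose there from 2 to 7 reads per library to 18 to 29 reads (log2 fold change 2.23, SE 0.46, adjusted p = 0.0209). COLEC12, a scavenger receptor, fell there by 0.59 (SE 0.16, adjusted p = 0.0476). VTN, vitronectin, an inhibitor of the terminal complex, fell in control cells by 0.67 (SE 0.18, adjusted p = 0.0430). With NACET no gene of this list passed in either line by edgeR, and 3 had an unadjusted p under 0.05 in each.

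**Figure D4:**
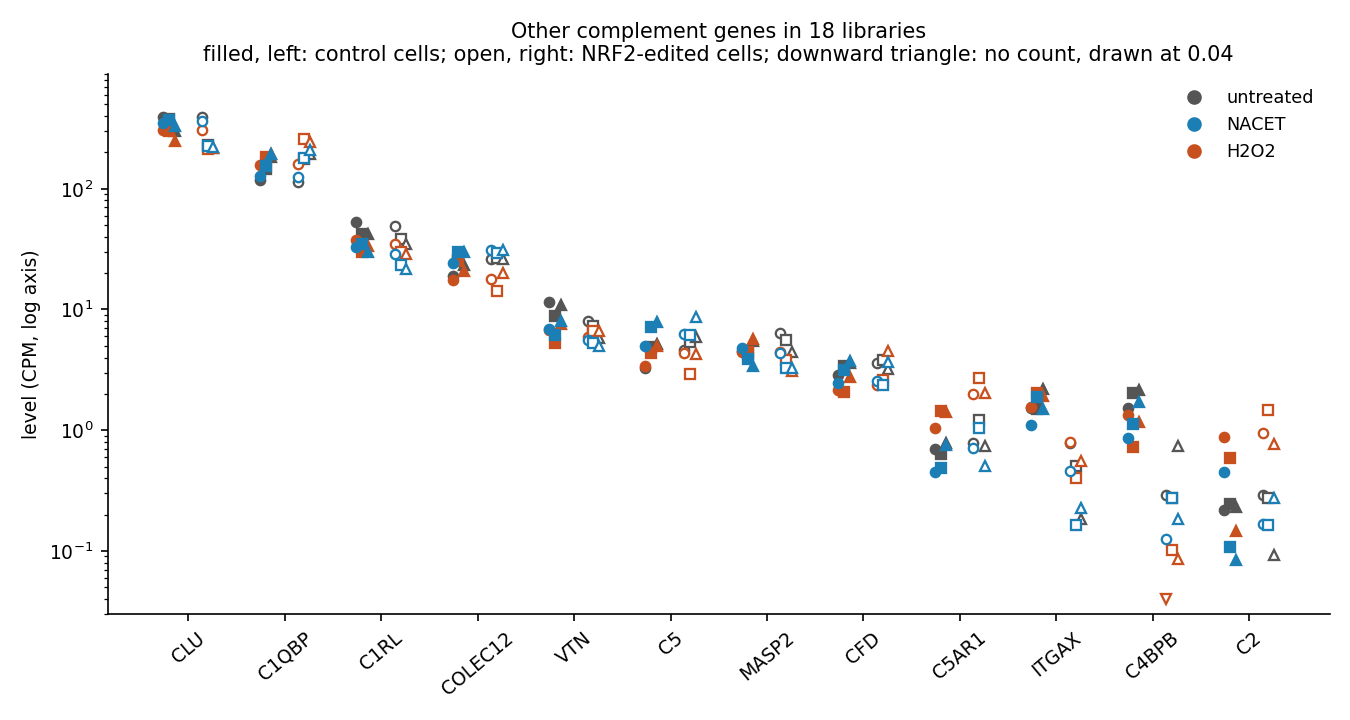
Level in CPM (log axis) of 12 other complement genes in every library, control cells at the left and NRF2-edited cells at the right of each name, those that averaged at least 1 CPM or passed a test. The edited libraries of ITGAX lie below every control library, and the 3 H2O2-treated edited libraries of C5AR1 lie between 2.00 and 2.72 CPM.

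C1R, C1S, SERPING1, CFB and C3 are known to be inducible by interferons, so 18 interferon-inducible genes were read beside them. With NACET 2 of 18 fell in control cells and 3 of 17 in edited cells, against 1.76% and 0.953% of all genes tested. IRF9, part of the factor that type I interferon activates, went from 76.2, 65.2 and 69.7 CPM to 41.1, 34.5 and 39.9 CPM in control cells with NACET (log2 fold change -0.88, SE 0.11, adjusted p = 0.0133), and its partner STAT2 from 177, 126 and 165 CPM to 95.3, 72.1 and 87.7 CPM (-0.88, SE 0.16, adjusted p = 0.030). Neither group overlapped with its untreated libraries. With H2O2 4 of 18 genes fell in control cells (GBP2, IFIT1, IRF7 and IRF9), against 6.16% of all genes. In edited cells 4 of 17 fell (GBP1, GBP2, IFIT1 and IRF9) and TAP1, a peptide transporter for antigen presentation, rose by 1.07 (SE 0.17, adjusted p = 0.00842), against 6.11% of all genes that fell and 4.96% that rose. IRF9 also fell in edited cells with NACET and with H2O2, by 0.74 (SE 0.12, adjusted p = 0.0295) and 0.66 (SE 0.15, adjusted p = 0.0284).

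Between the lines OAS1, an antiviral enzyme, was lower in edited cells under all 3 conditions. It had 58, 57 and 30 reads in untreated control and 3, 9 and 7 in untreated edited libraries (log2 fold change -2.98, SE 0.42, adjusted p = 0.00492). PSMB9, an immunoproteasome subunit, was lower untreated (-1.02, SE 0.20, adjusted p = 0.0248) and with NACET (-1.22, SE 0.26, adjusted p = 0.0369). In all, 2 of 18 genes of this list passed untreated, 1 of 18 with H2O2 and 2 of 18 with NACET, all downward, against 3.3%, 4.39% and 4.21% of all genes. The median log2 fold change of the list between the lines stood at -0.27 in untreated cells, -0.18 after H2O2 and -0.27 after NACET, and with either treatment within a line it lay between -0.24 and -0.20.

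Over all 18 libraries the genes whose log2 CPM followed these 9 most closely, among 12847 genes, were ISYNA1 (Pearson r = 0.97) and GYG2 (0.96) for SERPING1, SSPN and CRYAB (0.94 each) for C1S, and ZMYM2 (0.95) and SNX13 (0.93) for CD46. For CD59 they were RPSAP52 (0.93) and IFNE (0.92), for CD55 WDR59 and ATP6V1E1 (0.90 each), for C1R PBXIP1 and SDC4 (0.87 each) and for C3 C1orf198 (0.87) and WWC1 (0.81). CFI was closest to PADI2 (0.85) and ACIN1 (0.81), and CFB to RHOQ and TES (0.85 each). The 18 libraries share lines, treatments and replicate numbers, so any gene with a large difference between the lines also correlates with SERPING1. Among the 9 genes the highest correlations were 0.82 for C1S with SERPING1 and 0.81 for C1S with CFB, and the lowest was -0.71 for CD59 with SERPING1.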

How the data were processed

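The authors prepared TruSeq mRNA libraries, mapped single-end reads to hg19 with TopHat2 2.1.0 and counted them per gene with HTSeq 0.11.2, without regard to strand. The deposited values are whole-number counts for 23411 gene symbols per library, without normalization. The gene annotation is not given in the sources used here. The 5 summary lines of each file were not counted as genes. Reads on genes made up 72.1 to 74.2% of a library, reads on no gene 15.0 to 17.5%.

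Samples were grouped by the library names in their descriptions. The members and the gene lists were chosen with earlier results of these data known. The genes named are the members, the listed complement and interferon-inducible genes that passed a test or averaged at least 1 CPM, the 2 genes most correlated with each member, and NFE2L2 and NQO1. One listed gene is not reported here and was left out of the list's counts. Levels are CPM with TMM factors over 18 libraries. Differences were tested with edgeR 4.0.16 in R 4.3.3 (filterByExpr, TMM, quasi-likelihood test, Benjamini-Hochberg adjustment over all genes tested) on the 6 samples of each pair of groups, or 12 samples for the 2 interactions, and log2 values for correlations used a prior count of 2. A gene passed at an adjusted p under 0.05. Positions and transcript lengths came from GENCODE v44 lifted to hg19, and promoters from RefSeq.

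Nothing in the labels says that replicates were separate cultures, so p-values measure the spread between these samples, which may be technical. This spread is estimated by edgeR partly from other genes. No pair of replicates agreed within sampling noise (chi-square per degree of freedom at least 9.98). Whether replicate numbers pair samples was checked by the correlation of deviations from group means over 11010 genes. It was 0.469 to 0.869 for pairs within a line, so a fit with the number as a block is given beside the treatment results, while between lines it was 0.590 to 0.773 for numbers 1 and 3 and -0.251 to -0.0365 for number 2, so that not every pair passed 0.1 and the numbers were not taken as pairs there. The alternatives were DESeq2 1.42.0, RLE and upper-quartile factors, no filter and a filter of 1 CPM in 3 samples, 1 fit of all 18 samples, the block, a fold limit of log2 0.6, and leaving out each library in turn. The fits without the block were tested on simulated counts with 200 changed genes, and the blocked fits were not. These counts were drawn independently for each library, without the departures shared by a replicate number, so the rates may not hold for these data. For NACET against untreated in control cells, the fits recovered 84 of 100 genes changed by log2 1 and 99 of 100 changed by log2 2. False calls numbered 16 among 13607 genes. For NRF2-edited against control cells, both untreated, the fits recovered 80 of 100 genes changed by log2 1 and 98 of 100 changed by log2 2, with 10 false calls among 13599 genes. For the NACET interaction they recovered 46 and 90 of 100, with 13 false calls among 13871 genes.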

Additional observations from a re-analysis of the deposited data

How the results depend on the processing

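The counts of these genes that passed a test stayed within 1.5 times under DESeq2, RLE or upper-quartile factors, no filter, the filter of 1 CPM, 1 fit of all 18 samples and the fold limit, in all 9 comparisons. In control cells the replicate block raised them from 0 to 4 (NACET) and from 0 to 5 (H2O2), in edited cells from 0 to 2 (NACET) and from 1 to 5 (H2O2), while the share of all genes passing rose too. It changed no call of an interaction. Between the lines, where the numbers were not taken as pairs, the block added C1S untreated (log2 fold change -0.87, adjusted p = 0.00462) and CD59 with H2O2 (0.36, adjusted p = 0.0345) and NACET (0.40, adjusted p = 0.0253). With it the share of all genes passing between the lines rose too, to 8.84% untreated, 23.4% with H2O2 and 16.9% with NACET. DESeq2 added C1S untreated (-0.87, adjusted p = 0.0192) and CD59 with NACET (0.41, adjusted p = 0.0160). Leaving out 1 library, the counts ranged from 0 to 1 for NACET and 0 to 0 for H2O2 in control cells, 0 to 0 for NACET and 0 to 1 for H2O2 in edited cells, 1 to 3 for the untreated lines, 1 to 4 with H2O2, 1 to 2 with NACET, and 0 to 0 for both interactions. Over the same fits, the number of all genes passing ran from 31 to 377 for NACET and 310 to 1692 for H2O2 in control cells. In edited cells it ran from 0 to 470 and from 275 to 3173. Between the lines it ran from 261 to 1010 untreated, 400 to 4248 with H2O2 and 320 to 1046 with NACET. For the interactions it ran from 2 to 8 with NACET and 0 to 11 with H2O2. Without NACET-treated control replicate 3, CD55 passed downward with NACET (-0.64, adjusted p = 0.0436). Without edited H2O2 replicate 1, CD46 (-0.34, adjusted p = 0.0383) and CD59 (0.40, adjusted p = 0.0223) passed between the lines, and without edited untreated replicate 1 C1S did (-1.03, adjusted p = 0.0494). All 54 group means stayed within 1 SD without TMM factors and with RLE factors.

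Of 81 log2 fold changes, 3 near 0 changed sign under other settings, and the cause was not tested. CD59 with NACET in control cells (-8.3e-05) became 0.0071 with DESeq2, 0.0047 with RLE factors, 0.0083 with upper-quartile factors and 0.0014 without a filter. CD46 with NACET in edited cells (-0.0035) became 0.0014 with DESeq2, 0.019 with upper-quartile factors, 0.0032 without a filter, 0.013 in 1 fit of 18 samples and 0.00031 with the block. C1R between the lines with H2O2 (-0.0020) became 0.016 in 1 fit of 18 samples and 0.0090 with the block. With the block, CFI had passed with NACET in control cells (adjusted p = 0.0409) and C3 with H2O2 in edited cells (adjusted p = 0.0184). None of the 32 that changed sign when 1 library was left out, these among them, had passed in the main fit without the block. Their ranges over those fits were, for NACET in control cells CFI -1.01 to 0.14, C3 -0.57 to 0.48, C1S -0.33 to 0.24, CD46 -0.044 to 0.12 and CD59 -0.049 to 0.072, for H2O2 in control cells CFI -0.84 to 0.11, for NACET in edited cells CFI -0.58 to 0.039, C3 -0.89 to 0.98, CD46 -0.12 to 0.14, CD55 -0.087 to 0.035 and SERPING1 -0.73 to 0.18, for H2O2 in edited cells C3 -1.51 to 0.53, CD46 -0.13 to 0.18, CD59 -0.022 to 0.11 and SERPING1 -0.22 to 0.26, for the untreated lines C1R -0.32 to 0.062 and CD46 -0.25 to 0.015, for the lines with H2O2 CFI -0.21 to 0.38 and C1R -0.12 to 0.13, for the lines with NACET C1R -0.19 to 0.041 and CD55 -0.36 to 0.0022, for the NACET interaction CFI -0.46 to 0.69, CFB -0.45 to 0.048, C3 -0.82 to 1.06, C1R -0.15 to 0.24, CD46 -0.15 to 0.11 and SERPING1 -0.32 to 0.61, for the H2O2 interaction CFB -0.16 to 0.29, C3 -0.82 to 1.23, C1R -0.048 to 0.35, C1S -0.38 to 0.23 and CD46 -0.21 to 0.086. The 6 to 25 reads of SERPING1 in each edited library limit the precision of its values.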
